A study of Homo sapiens with 3 samples.

Results

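Purine-rich intronic clusters are the stretches of intron RNA, recovered in a MATR3 crosslinking experiment, in which A and G together made up at least 50% of the bases. They were chosen in each library as the clusters annotated as intron with that purine share, and every other intronic cluster of the same library served as the reference. The rule selected 5981 of the 115227 clusters of all 3 libraries. Of these, 4602 came from WT rep1, 1206 from WT rep2 and 173 from the knockout (KO) library, against 68715, 21363 and 367 other intronic clusters.

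The libraries were made by PAR-CLIP, a method in which cells take up a photoreactive uridine analogue, UV light crosslinks it to bound protein, and the crosslinked uridine is read as C in place of T. All came from HAP1, a near-haploid human cell line derived from the chronic myeloid leukaemia line KBM-7. The 2 WT libraries, replicates named WT rep1 and WT rep2, came from wild-type HAP1 cells and the 1 KO library from a commercial HAP1 line without MATR3, described in the design as a negative control. The labels list anti-FLAG beads for the immunoprecipitation in every library and record no tag on MATR3, no UV dose and no shared culture or date, so the spread between the WT libraries may be technical. The clusters held 2668797 reads in WT rep1, 1558995 in WT rep2 and 224142 in KO. These are reads within called clusters, and the depth of sequencing is not known from them.

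MATR3 (matrin 3) is an abundant nuclear matrix protein with a pair of RNA recognition motifs and a pair of zinc fingers. It is known to bind pyrimidine-rich RNA, much of it deep in introns, with AUCUU as a preferred word in vitro, and to repress the use of nearby exons together with the polypyrimidine tract protein PTBP1. Purine-rich RNA is the reverse of that preference. Because PAR-CLIP needs a crosslinked uridine and RNase T1 cuts RNA after G, a cluster of A and G must still hold T and usually ends at a G.

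The sequences below are written 5′ to 3′ on the strand of the cluster, with its longest unbroken run of A and G in capitals, and show what the purine-rich clusters look like. The first 6 are from WT rep1 and belong to the 10 purine-rich sites with the most reads that overlapped between the WT libraries. The next 4 are among the 5 purine-rich clusters with most reads in KO.
RBM14, chr11:66625834-66625869, plus strand: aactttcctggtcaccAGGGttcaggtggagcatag
RPL26, chr17:8380244-8380275, minus strand: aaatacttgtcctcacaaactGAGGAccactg
DYRK1A, chr21:37507933-37507966, plus strand: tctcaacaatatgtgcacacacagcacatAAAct
WTAP, chr6:159744485-159744517, plus strand: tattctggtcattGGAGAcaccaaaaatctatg
PPP6R3, chr11:68480035-68480067, plus strand: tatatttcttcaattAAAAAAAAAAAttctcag
FARP1, chr13:98144713-98144747, plus strand: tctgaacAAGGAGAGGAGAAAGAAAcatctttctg
TMEM38B, chr9:105768566-105768595, plus strand: ataacaatttcttacatagatatAGGGcta
CCDC71, chr3:49165350-49165380, minus strand: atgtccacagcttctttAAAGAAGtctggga
GLCCI1, chr7:8002870-8002899, plus strand: atacccctatGGGAAGGAGAAGtatcatag
CWC27, chr5:64824234-64824264, plus strand: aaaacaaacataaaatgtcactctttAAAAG
Most of these are mixed sequences just past the limit, with purine runs of 3 to 7 bases. The long runs, of 18 bases in FARP1, 12 in GLCCI1 and 11 in PPP6R3, are of different kinds: G and A alternate in FARP1 and GLCCI1, while the PPP6R3 run is A alone.

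Purine-rich clusters were a small share of intronic clusters in both WT libraries and a large one in KO. They made up 6.28% of intronic clusters in WT rep1 (95% Wilson interval 6.10 to 6.45), 5.34% in WT rep2 (5.06 to 5.64) and 32.0% in KO (28.2 to 36.1). Over the WT libraries the mean was 5.81% ± 0.660 (SD, n = 2), and the KO share was 5.51 times as high. With 1 cluster per gene and class the shares were 25.6% in WT rep1, 16.2% in WT rep2 and 33.3% in KO. That setting raises the WT shares by construction, since the class with more clusters per gene loses most. In WT rep1 it cut other intronic clusters from 68715 to 7743 and purine-rich ones from 4602 to 2671. In KO it cut them from 367 to 340 and from 173 to 170, so the nearer shares are no result. By reads, purine-rich clusters held 4.45% of the intronic reads in WT rep1, 5.15% in WT rep2 and 34.0% in KO. The KO value lay far outside the spread between the WT libraries in both measures. No test between genotypes was run on 1 KO library, since permuting 3 libraries gives a smallest p of 0.33. Intervals cover counting error only, because the reads carry no molecular identifiers in these tables and clusters of a library are not replicates of a condition.

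**Figure D1:**
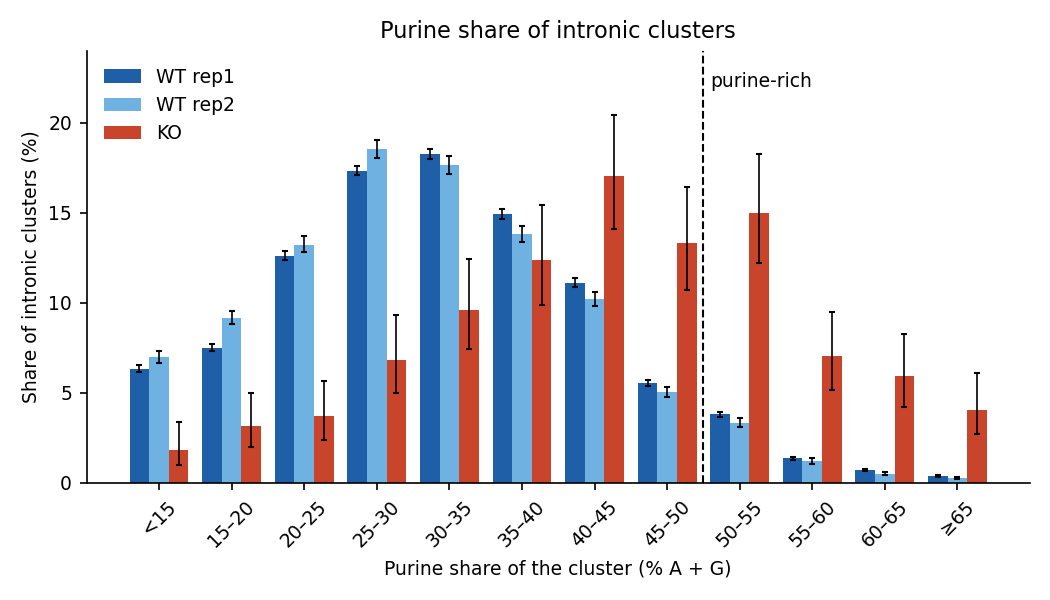
Share of intronic clusters (%) in each class of purine share (% A + G) for WT rep1, WT rep2 and KO, with 95% Wilson intervals; the dashed line marks the 50% limit. The WT libraries peak between 25% and 35% purine, KO between 40% and 45%, and KO stands above both WT libraries in every class to the right of the line.

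The limit of 50% cut through a continuous distribution. In WT rep1, 5.57% of intronic clusters lay from 45% to below 50% purine and 3.81% from 50% to below 55%. The same classes held 5.03% and 3.35% in WT rep2, and 13.3% and 15% in KO. The median purine share of the purine-rich clusters was 53.3% in WT rep1, 53.1% in WT rep2 and 55.9% in KO, and 20.8%, 22.8% and 15.03% of them stood at exactly 50%. Just inside the limit, the cluster with the most reads in WT rep1 was the RPL26 one, with 340 reads, and in WT rep2 one in FAM168B, with 209 reads. Just outside it stood a cluster in RPRD1B at 49.5% purine with 44 reads in WT rep1 and one in PTPN9 at 49.02% with 22 reads in WT rep2. These had the highest purine share below the limit, while those inside were the strongest of many at exactly 50%. The read numbers of the sides are therefore not comparable.

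Strongly purine-rich clusters were few. A purine share of at least 60% was found in 815 clusters of WT rep1, 176 of WT rep2 and 54 of KO, which is 17.7%, 14.6% and 31.2% of the purine-rich clusters. At 70% or more there were 89, 24 and 9. One cluster per library shows the far end of the range; these 3 were chosen after their values were seen, as the highest purine share among the clusters whose sequence could be shown.
WT rep1, HERPUD1, chr16:56938809-56938841, plus strand: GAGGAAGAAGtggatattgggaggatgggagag
WT rep2, NSUN6, chr10:18571211-18571256, minus strand: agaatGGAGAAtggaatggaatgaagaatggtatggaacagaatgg
KO, ATP6AP1L, chr5:82293838-82293867, plus strand: AAAAGGGAGtatgaggaggcagtaggaatt
They were 84.8%, 80.4% and 80.0% purine. HERPUD1 encodes a protein of the endoplasmic reticulum stress response, and its cluster had 31 reads, 90.3% of them with a T-to-C change. The ATP6AP1L cluster had 148 reads, 93.9% of them converted. The NSUN6 cluster, in the gene of an RNA cytosine methyltransferase, had 150 reads of which 16.0% were converted. It was the one purine-rich cluster of any library with at least 2 copies of the word GGAAT, a word taken from this sequence. Among other intronic clusters, 4 of WT rep1 had at least 2 copies, with a median of 94.6% of reads converted, and none of WT rep2 or KO had.

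Weak and strong clusters were purine-rich to a different extent in the WT libraries. In WT rep1 the purine-rich share was 7.64% among intronic clusters of 5 to 9 reads, 7.61% at 10 to 19, 6.06% at 20 to 49, 2.59% at 50 to 99, 0.982% at 100 to 199 and 2.36% at 200 or more. In WT rep2 it was 4.87%, 4.96%, 5.42%, 6.05%, 5.32% and 1.84% in the same classes. In KO it was 30%, 28.6%, 38.9%, 25.5%, 26.1% and 35.0%. WT rep1 thus had its low values among strong clusters, WT rep2 in the top class alone, and KO had no class below 25%. At 200 or more reads the 95% intervals were 1.36 to 4.08 in WT rep1, 0.935 to 3.59 in WT rep2 and 29.8 to 40.5 in KO. The 12 and 8 purine-rich clusters behind the WT values are few, and 106 stood behind the KO value.

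**Figure D2:**
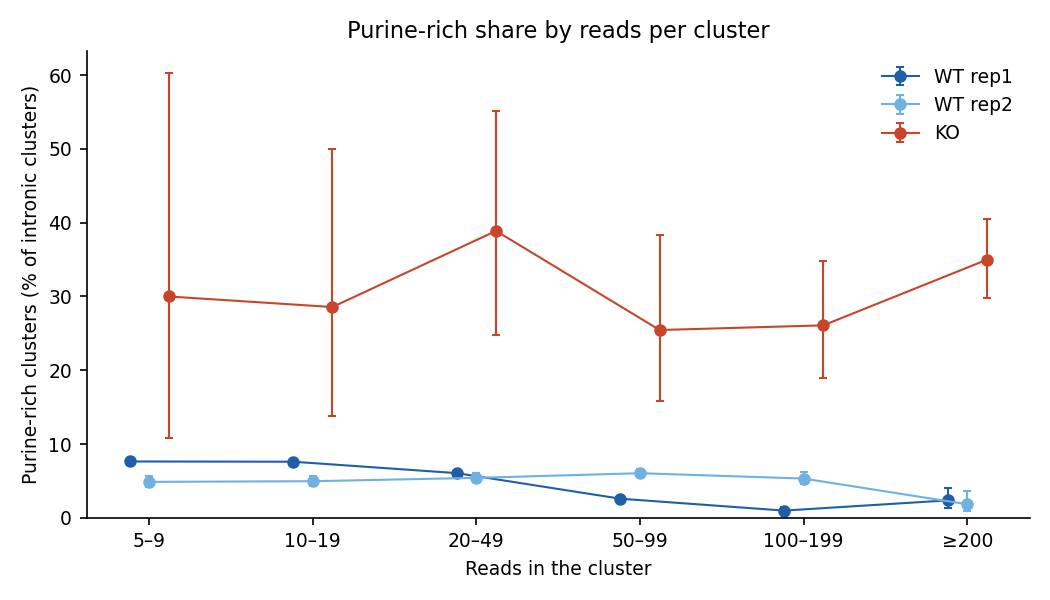
Purine-rich clusters as a percentage of intronic clusters in classes of reads per cluster, for each library, with 95% Wilson intervals. KO stays between 25.5% and 38.9%, above both WT libraries in all 6 classes, although its intervals are wide below 100 reads.

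Read numbers themselves did not set purine-rich clusters apart in one direction. The median was 17 reads in purine-rich and 21 in other intronic clusters of WT rep1, 42 and 38 in WT rep2, and 255 and 226 in KO. The difference was below 0 in one WT library and above 0 in the other. The strongest purine-rich cluster had 412 reads in WT rep1, 242 in WT rep2 and 667 in KO. Lengths were near equal, with medians of 33 and 33 nt in WT rep1, 33 and 32 nt in WT rep2, and 30 and 29 nt in KO. Distinct read sequences per cluster had medians of 2 and 3 in each WT library, and of 8 and 6 in KO.

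Purine-rich sites recurred less between the WT libraries than other intronic sites did. Of all intronic clusters, 20.3% of those in WT rep2 overlapped a cluster of WT rep1 on the same strand, by 1 nt or more, and 6.19% of those in WT rep1 overlapped one of WT rep2. Among purine-rich clusters of WT rep2 it was 70 of 1206, or 5.80% (4.62 to 7.27), against 21.1% (20.5 to 21.6) of the others. In the other direction it was 74 of 4602, or 1.61% (1.28 to 2.01), against 6.49% (6.31 to 6.68). Both intervals stood apart from those of the other intronic clusters. Each direction describes the same pair of libraries, so there is 1 comparison and no test of it over libraries.

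The overlap was lower in purine-richer classes over most of the range, on both sides of the limit. For WT rep2 clusters it was 28.9% below 15% purine, 19.5% from 30% to below 35%, 9.86% from 45% to below 50%, 6.75% from 50% to below 55% and 3.17% at 65% or more. For WT rep1 clusters the same classes gave 8.37%, 6.56%, 2.69%, 1.86% and 1.74%. The order was not strict: in WT rep1 the class from 15% to below 20% had the highest value, 9.38%, and that from 60% to below 65% the lowest, 0.759%, and in WT rep2 the class from 55% to below 60% had 4.38% and the next 4.42%. The last values rest on 2 of 63 clusters and 5 of 288 clusters, and their intervals overlap those of the neighbouring classes.

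**Figure D3:**
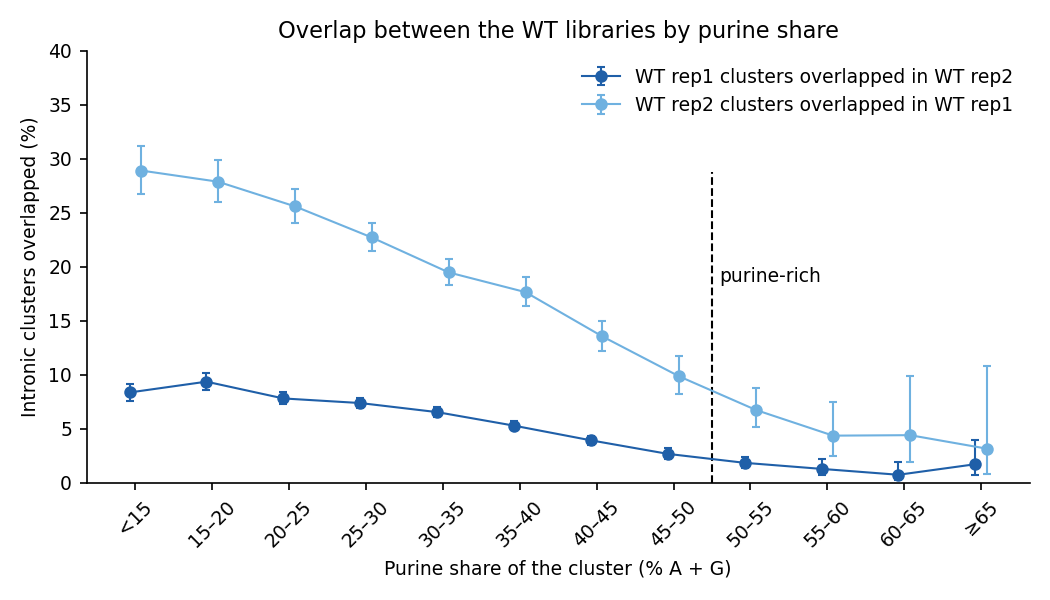
Share of intronic clusters (%) of each WT library that overlapped a cluster of the other, by purine share (% A + G), with 95% Wilson intervals; the dashed line marks the 50% limit. WT rep2 clusters go from 28.9% in the lowest class to 3.17% in the highest, and WT rep1 clusters from 8.37% to 1.74%, with a peak of 9.38% in the class from 15% to below 20%.

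The gap was present at like read numbers. Among WT rep2 clusters of 100 or more reads, 9.50% of the purine-rich and 32.3% of the other intronic clusters were overlapped in WT rep1. At 5 to 9 reads the values were 2.01% and 9.08%. Purine-rich clusters were below the others in all 5 read classes of both libraries, with intervals that stood apart in every class but 1. The exception was WT rep1 at 100 or more reads, with 7 of 33 purine-rich clusters (21.2%, 10.7 to 37.8) against 29.9% (28.2 to 31.7).

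**Figure D4:**
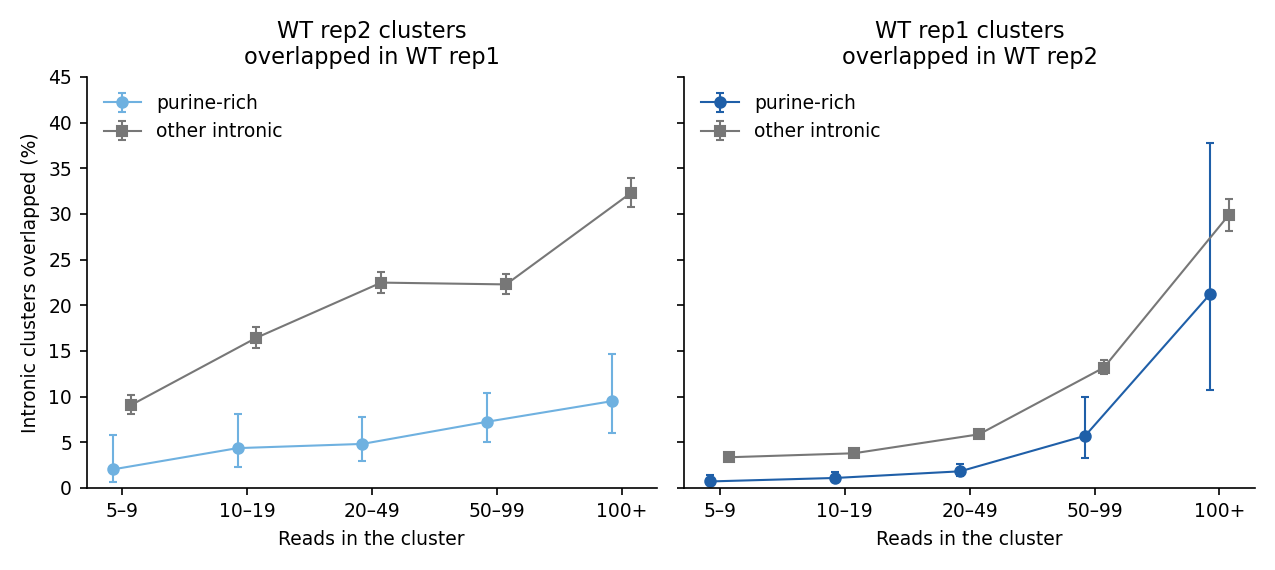
Share of intronic clusters (%) overlapped in the other WT library, by reads per cluster, for purine-rich and other intronic clusters of WT rep2 and of WT rep1, with 95% Wilson intervals. Purine-rich clusters lie lower in each class; the intervals meet for WT rep1 clusters of 100 or more reads.

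Where a purine-rich site did recur, its partner in the other library was purine-rich in some cases and not in others. Of the 70 overlapped clusters of WT rep2, 44 had a partner that was purine-rich as well (62.9%, 51.1 to 73.2), and of the 74 of WT rep1, 43 had one (58.1%, 46.7 to 68.7). With each cluster used once, these formed 43 pairs, of which 24 shared the 5′ end, 21 the 3′ end and 14 both (32.6%, 20.5 to 47.5), against 35.5% (34.1 to 36.9) of 4428 pairs of other intronic clusters with both ends shared, and the intervals overlapped. The overlapped clusters had more reads than the rest, with medians of 66 against 40 in WT rep2 and 28.5 against 17 in WT rep1.

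The pair with the highest reads over both libraries lay in RBM14, which encodes a nuclear RNA-binding protein of paraspeckles: 53 reads in WT rep1 and 180 in WT rep2, on the same 36 bases. Its reads had T-to-C changes in 73.6% of cases in WT rep1 and 98.9% in WT rep2. The pair in RPL26, a ribosomal protein gene of the large subunit, had 340 and 28 reads and shared the 5′ end. In WTAP, which encodes a subunit of the RNA adenosine methyltransferase complex, both libraries gave the same 33 bases with 127 and 55 reads. In WT rep1, however, 44.9% of the WTAP reads were converted, against 96.4% in WT rep2. The DYRK1A pair, in the gene of a protein kinase, was alike in this: 48.4% of 62 reads in WT rep1 and 97.3% of 113 reads in WT rep2. PPP6R3, a regulatory subunit of a protein phosphatase, had 44 and 132 reads on the same 33 bases around its run of A.

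FARP1, a guanine nucleotide exchange factor, was the most purine-rich of the 10 pairs. Its cluster was 65.7% purine in WT rep1, with 40 reads, and 58.3% in WT rep2, with 135 reads. The WT rep2 cluster, chr13:98144699-98144734, began further upstream and took in pyrimidines that the other did not:
FARP1, WT rep2: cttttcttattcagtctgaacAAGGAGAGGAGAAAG
Further pairs were in UXS1, ANKRD17 and GOSR2. These 3 had 36 to 92 reads in WT rep1 and 90 to 130 in WT rep2, at 50% to 51.5% purine.

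Purine-rich sites of the KO library were almost all at other positions than those of the WT libraries. Of all intronic clusters, 0.03% in WT rep1 and 0.0443% in WT rep2 overlapped a KO cluster, and 5% of those in KO overlapped a cluster of either WT library. No purine-rich cluster of WT rep1 overlapped a KO cluster, and none of WT rep2 did. A limit of 3 counts allows shares of up to 0.0652% and 0.249%, and the Wilson upper limits are 0.0834% and 0.318%. Of the 173 purine-rich KO clusters, 1 overlapped a WT cluster (0.578%, 0.102 to 3.20), against 26 of 367 other intronic KO clusters (7.08%, 4.88 to 10.2). These intervals stood apart. The overlap was in BCLAF1, a gene for a nuclear protein of RNA processing and transcription. It had 306 reads in KO at 54.8% purine, and 20 reads in WT rep1 at 48.5% purine, so its WT partner was not purine-rich.

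The 5 purine-rich KO clusters with most reads had between 574 and 667. They were in TMEM38B, a cation channel of the endoplasmic reticulum (667 reads), AGO2, the slicing Argonaute protein of RNA silencing (662 reads, chromosome 8), CCDC71 (640), GLCCI1 (612) and CWC27, a spliceosome-associated protein (574). Between 95.3% and 97.9% of their reads carried a T-to-C change. None of the 5 is the same site as a WT cluster.

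Every listed cluster had at least 2 converted positions, so the presence of conversion was set by the lists, and its extent is given as a description. The median share of a cluster's reads with a T-to-C change was 96.3% in purine-rich and 94.1% in other intronic clusters of WT rep1, 97.4% and 97.6% in WT rep2, and 96.6% and 97.4% in KO. Poorly converted clusters, with fewer than 50% of reads changed, made up 2.24% of the purine-rich and 3.84% of the others in WT rep1, 1.66% and 3.23% in WT rep2, and 4.05% and 5.45% in KO. The intervals for purine-rich clusters were 1.97 to 8.12 in KO, 1.85 to 2.71 in WT rep1 and 1.08 to 2.55 in WT rep2.

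Each T of a purine-rich cluster was read as converted more often, but this went with how few T there were. Over all T positions read, 13.2% were converted in purine-rich and 7.87% in other intronic clusters of WT rep1, 11.7% and 7.63% in WT rep2, and 13.7% and 9.38% in KO. A purine-rich cluster had a median of 9, 9 and 7 T in WT rep1, WT rep2 and KO, against 14, 13 and 11 in the others. Among clusters with 8 or 9 T, the median converted share was 13.3% and 12.5% in WT rep1, 12.6% and 12.5% in WT rep2, and 12.6% and 12.6% in KO. Over all T positions read, the WT mean difference was 4.71 percentage points. An alternative added after the data were seen took the mean converted share per cluster, weighted to the same number of T. There the difference was 0.517 ± 0.797 (SD, n = 2) over the WT libraries. The first value counts every T event alike and the second every cluster alike, so the step between them does not measure T number alone. Converted events per read were 1.15 and 1.06 in WT rep1, 1.09 and 1.06 in WT rep2, and 1.07 and 1.08 in KO.

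**Figure D5:**
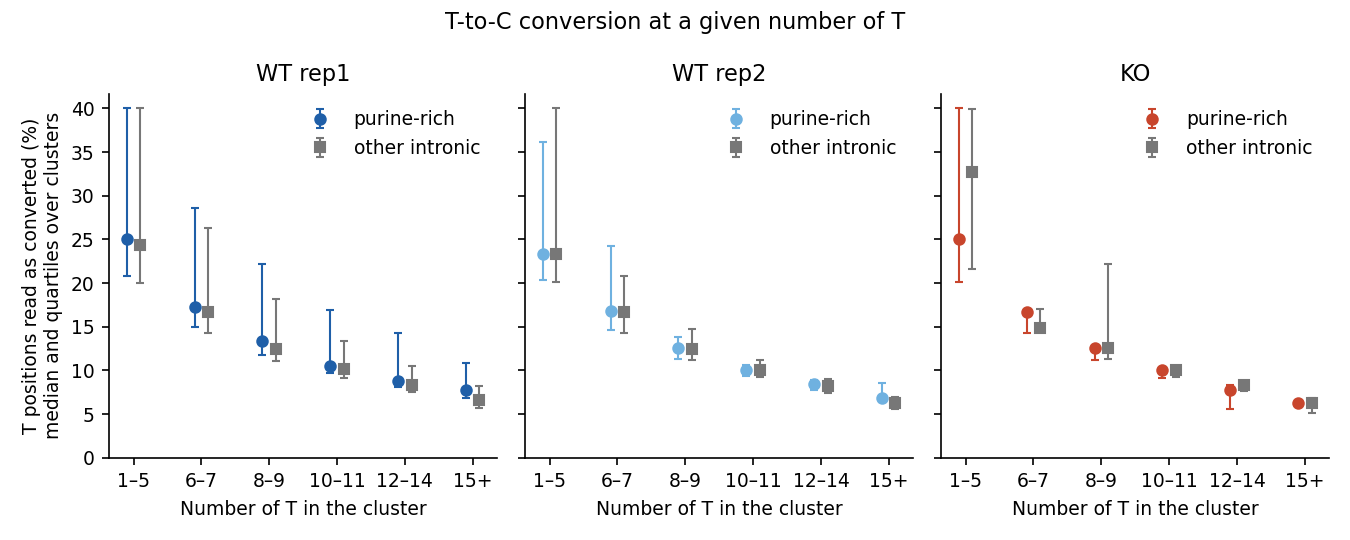
Share of T positions read as converted (%), as the median over clusters with quartiles, against the number of T in the cluster, for purine-rich and other intronic clusters in each library. Medians of both classes decline with the number of T, from 23.3% to 25.1% at 1 to 5 T (32.7% for the 6 other intronic KO clusters) to below 8% at 15 or more T, where KO has 1 purine-rich cluster.

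Most purine-rich clusters had the lowest listed number of converted positions. Exactly 2 were found in 83.2% of purine-rich and 57.1% of other intronic clusters of WT rep1, in 88.9% and 73.9% in WT rep2, and in 77.5% and 68.4% in KO. With at least 3 converted positions required, 775 purine-rich clusters were left in WT rep1 and 134 in WT rep2. The purine-rich share was then 2.45% ± 0.151 (SD, n = 2) over the WT libraries and 25.2% in KO. None of these values was taken at equal T number. Purine-rich clusters held fewer T, which leaves fewer positions that can be converted.

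The purines of these clusters were more often G than in other intronic clusters. The rule was set on A and G together, so it can itself shift the split between them. How far it did so was not tested, so this contrast is a description and not a trait independent of the rule. Over the WT libraries the contrast was larger at stricter limits, as given in the closing section. G was 37.96% of the purine bases in purine-rich and 30.5% in other intronic clusters of WT rep1, 39.9% and 30.6% in WT rep2, and 39.9% and 36.6% in KO. The difference was 8.40 percentage points ± 1.37 (SD, n = 2) over the WT libraries and 3.31 in KO. With at least 3 converted positions it was 6.45 over the WT libraries and of the opposite sign in KO, at -2.33. A remained the commoner purine: 69.1%, 66.6% and 67.1% of purine-rich clusters in WT rep1, WT rep2 and KO had more A than G. Among pyrimidines, T was 60.3%, 62.2% and 58.9% in purine-rich clusters against 59.2%, 61.0% and 58.4% in the others.

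G was unevenly placed along a cluster. With the last base left out, and each cluster cut into 5 equal parts from its 5′ end, G was 15.3% of bases in part 1 of the purine-rich clusters of WT rep1, 23.6%, 22.9% and 22.6% in parts 2 to 4 and 12.5% in part 5. In WT rep2 parts 1, 3 and 5 had 16.1%, 23.6% and 11.2%, and in KO 17.1%, 24.9% and 14.4%. Other intronic clusters had the same shape at lower levels, with 6.07%, 8.46% and 4.66% in WT rep1. The last base was G in 70.1% of purine-rich and 74.2% of other intronic clusters of WT rep1, in 93.3% and 94.7% in WT rep2, and in 78.6% and 77.9% in KO. RNase T1 cuts after G, which leaves ends at G. WT rep2 had more such ends in both classes, and the cause was not tested. At the mode position, the deposited point of the cluster's peak signal, a pyrimidine stood in 43.5%, 48.0% and 41.6% of purine-rich clusters, against 66.9%, 69.9% and 63.8% of the others. The rule itself lowers the share of pyrimidines, so this contrast is no result.

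The most frequent words of 5 bases in purine-rich clusters were made of A with at most 1 T. Of every 1000 words of 5 bases, AAAAA accounted for 14.8 in WT rep1, 10.7 in WT rep2 and 12.2 in KO, against 2.02, 1.88 and 1.68 in other intronic clusters. It was in 19.5%, 14.9% and 17.3% of purine-rich clusters. The next 4 over the WT libraries were words of 4 A and 1 T, led by AAAAT, which was in 23.0%, 19.9% and 20.2% of purine-rich clusters. The rule favours any word of purines, so only the order among words of one composition is informative. Among words of 8 bases AAAAAAAA had the most occurrences over the WT libraries. Long runs of A count several times, and by clusters holding it (2.69%, 1.49% and 1.73%) it was below TTTAAAAA in both WT libraries (2.74% and 2.40%). The polyadenylation hexamer AATAAA was in 7.39%, 6.63% and 5.78%.

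Among the 10 orders of 3 G and 2 A, GGGAA and AGGGA were the most frequent in the WT libraries and GAAGG the least. Relative to the mean of the 10 orders, GGGAA stood at 1.36 in WT rep1, 1.33 in WT rep2 and 1.52 in KO, AGGGA at 1.38, 1.23 and 1.07, and GAAGG at 0.662, 0.666 and 0.357. The KO values rest on 17, 12 and 4 occurrences. In other intronic clusters GGGAA stood at 1.41 and 1.59 and GAAGG at 0.636 and 0.597 in the WT libraries, so these words stood on the same side of the mean outside the purine-rich class. Among the 10 orders of 3 A and 2 G, GGAAA and AGGAA were the highest in the WT libraries, at 1.59 and 1.74 and at 1.53 and 1.33. GAAGA, a classical exonic splicing enhancer word bound by SR proteins, was at 0.654 in WT rep1, 0.638 in WT rep2 and 1.11 in KO, the last on 10 occurrences. In other intronic clusters of the WT libraries GAAGA stood at 0.605 and 0.672, GGAAA at 1.49 and 1.44 and AGGAA at 1.69 and 1.54. These words, too, stood on the same side of the mean outside the purine-rich class. In other intronic KO clusters GAAGA was at 0.645, on 2 occurrences.

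The pyrimidine words that MATR3 prefers were scarce, as the rule forces. TTCTT was in 5.85%, 4.89% and 3.47% of purine-rich clusters and in 32.3%, 33.5% and 15.3% of the others. ATCTT, the DNA spelling of the in vitro word, was in 6.43%, 5.72% and 2.89%, against 15.4%, 16.5% and 8.17%. A pyrimidine run of at least 8 bases was present in 6.41% of purine-rich clusters of WT rep1, 6.63% of WT rep2 and 3.47% of KO, as in the FARP1 cluster of WT rep2 above. Purine runs of at least 8 bases were in 19.9%, 16.7% and 19.1%.

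Words of other known elements were looked for on the strand of the cluster. GTAAG, the core of the 5′ splice site, was in 1.52% and 1.99% of purine-rich clusters in the WT libraries and in 0 of 173 in KO, which allows a share of up to 1.73% by 3 counts and 2.17% by the Wilson limit; it was in 0.263%, 0.243% and 1.36% of other intronic clusters. GTGAG, its other common form, was in 3.67%, 3.40% and 7.51%, against 0.693%, 0.566% and 0.272% of the others. The KO value rests on 13 occurrences in 1 library and is 1 of several words looked at. Its interval was 4.44 to 12.4, and those of the WT libraries were 3.17 to 4.26 (WT rep1) and 2.52 to 4.58 (WT rep2). These intervals cover counting error within a library, so they do not compare genotypes. TAGGG, a word bound by hnRNP A1, was in 4.80%, 4.15% and 4.05%, against 1.19%, 0.857% and 1.63% of the others. GGAGGC and GTGGCTCA, words of the Alu repeat consensus, were in 2.06%, 1.33% and 2.89% and in 0.152%, 0.249% and 0.578%, against 0.314%, 0.243% and 0.272% and 0.0378%, 0.0234% and 0.272% of the others. All of these words but GTGGCTCA hold more purines than pyrimidines, which the rule favours. A match is a description and not a site. Overlap with a RefSeq small RNA gene was found for 2 purine-rich clusters of WT rep1 (SNORA22B within CCT6A and SNORA87 within TCF7L2), 1 of WT rep2 (MIR4513 within CSK) and none of KO, against 1, 1 and 0 other intronic clusters. As a share of the class this was 0.0435% (0.0119 to 0.158) against 0.00146% (0.000257 to 0.00824) in WT rep1. In WT rep2 it was 0.0829% (0.0146 to 0.468) against 0.00468% (0.000826 to 0.0265), with intervals that met. Each share rests on 1 or 2 clusters.

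Purine-rich clusters were spread thinly over many genes. They lay in 2671 genes in WT rep1, 996 in WT rep2 and 170 in KO. A single purine-rich cluster was all that 61.1% of these genes had in WT rep1 and 85.2% in WT rep2. In WT rep1, 96.9% of purine-rich clusters lay in a gene that also held other intronic clusters, as did 91.0% in WT rep2 and 6.94% (12 clusters) in KO. The matching values for other intronic clusters were 97.5%, 91.6% and 14.4%. There were 605 genes with purine-rich clusters in both WT libraries, which is 22.7% of those of WT rep1 and 60.7% of those of WT rep2. Of genes with any intronic cluster, 4923 were found in both, or 62.5% and 93.8%. These shares are not on a like footing. Intronic clusters numbered 73317 in WT rep1 and 22569 in WT rep2, against 4602 and 1206 purine-rich ones, and more clusters per gene make a shared gene likelier.

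The gene with the highest number over the WT libraries was GPC3, encoding the cell surface proteoglycan glypican 3, on chromosome X. It had 7 purine-rich of 125 intronic clusters in WT rep1 and 12 of 104 in WT rep2, and its 1 intronic KO cluster was purine-rich, with 332 reads. AUTS2 had 7 of 120 and 6 of 64, SND1 9 of 171 and 4 of 74, and TTC28 9 of 143 and 4 of 56. DYRK1A had 8 of 107, 3 of 36 and, in KO, 2 of 4. TCF12, WWC2, XPO6, ANKRD11 and PARD3 completed the first 10, with 6 to 11 purine-rich clusters in WT rep1 and 2 to 5 in WT rep2. The purine-rich share of intronic clusters in these 10 genes was 5.26% to 11.6% in WT rep1 and 5.41% to 20% in WT rep2; they were chosen for their number of purine-rich clusters, so these shares are a description.

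Of 562 genes with at least 10 intronic clusters in each WT library, 51 had no purine-rich cluster in either. The highest shares were in MAP3K5, a stress-activated kinase (4 of 21 and 2 of 10), PKM, the pyruvate kinase of glycolysis (7 of 34 and 2 of 12), OGT, the O-GlcNAc transferase (3 of 18 and 2 of 10), MAP1B, a microtubule-associated protein (4 of 34 and 3 of 12), and KCTD3 (5 of 18 and 1 of 10). The PKM share was 20.6% in WT rep1 (10.3 to 36.8) and 16.7% in WT rep2 (4.70 to 44.8), so the numbers in single genes are too small to rank them. MATR3 itself, on chromosome 5, had 5 purine-rich of 52 intronic clusters in WT rep1 and 1 of 26 in WT rep2, with 13 to 20 and 15 reads. It had no intronic cluster in KO; the tables list clusters above a minimum only, and they do not measure expression, so this does not test the knockout.

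In KO, 161 of the 170 genes with a purine-rich cluster had an intronic cluster in a WT library, 102 had a purine-rich one and 30 had purine-rich clusters in both. Genes with 2 purine-rich KO clusters were DYRK1A (285 and 367 reads), KIAA1217 (312 and 412) and ADK (10 and 100). The share of genes with an intronic WT cluster was thus 94.7%, near the 96.2% (327 of 340) for genes with other intronic KO clusters. The 102 and 30 have no matching count for genes with other intronic KO clusters, so they are a description without a reference.

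Gene length and position differed little. The median length of the gene around a cluster was 98.8 kb for purine-rich and 110.0 kb for other intronic clusters of WT rep1, 118.2 and 121.0 kb in WT rep2, and 108.2 and 128.3 kb in KO. On a scale from 0 at the 5′ end of the gene to 1 at its 3′ end, the median position was 0.338 and 0.379 in WT rep1, 0.385 and 0.393 in WT rep2, and 0.408 and 0.351 in KO. Distances to exons were not analysed here.

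Purine-rich clusters had fewer close neighbours. Another intronic cluster on the same strand lay within 200 nt of 24.2% of purine-rich clusters (22.9 to 25.4) and 29.9% of the others (29.6 to 30.3) in WT rep1, and of 10.9% (9.23 to 12.7) and 17.2% (16.7 to 17.7) in WT rep2. The WT difference was -6.07 percentage points ± 0.407 (SD, n = 2). With at least 3 converted positions the difference was 6.496 in WT rep1 and -6.10 in WT rep2, a mean of 0.199, so the direction held in WT rep2 alone. With 1 cluster per gene and class it was 1.88. That setting favours this sign, since same-gene neighbours are then 1 of each class and purine-rich clusters are the smaller class. In KO, 0 of 173 purine-rich and 0.545% of other intronic clusters had such a neighbour.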

How the data were processed

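PAR-CLIP clusters were taken as the authors deposited them, 1 list per library. Reads were processed with cutadapt 1.8.3 and Bowtie 1.1.2 on hg38 (GRCh38.p5), per the submitters' processing notes; the cluster caller and its filters are not given in the sources used here. Deposited counts per cluster (reads, distinct reads, converted positions, converted and unconverted T events) are raw whole numbers, per the file headers. The deposited fraction of reads with T-to-C is printed as a percentage. The lowest deposited cluster has 5 reads and 2 converted positions. Positions count from 1: all 109 clusters lying inside RefSeq promoter windows (GRCh38.p14) gave the same bases there.

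Each intronic cluster was classed by its bases (A + G of at least 50%), with no filter on low values. Overlap needed 1 nt on the same strand and any cluster of the other library. Shares carry 95% Wilson intervals; WT values are means ± SD (n = 2). No test over libraries was run: an exact sign-flip test over 2 WT libraries cannot give a p below 0.5. Clusters, genes and words were named by a rule: the 10 overlapping WT pairs and the 5 KO clusters with most reads, those nearest the limit, the 10 genes with most purine-rich clusters, the 5 with the highest share, all orders of 3G2A and 3A2G, the 5 most frequent words, fixed words, and MATR3. The members and lists were chosen with earlier results of these data known. Of the 10 pairs, 1 is not reported here. Gene names matched RefSeq for 99.6% to 100% of purine-rich clusters per library. Code was tested on simulated data, in Python 3.11.15 with pandas 2.3.3 and scipy 1.17.1. Alternatives are in the closing section.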

Additional observations from a re-analysis of the deposited data

How the results depend on the processing

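The purine-rich share moved with the limit by construction: at 45%, 55% and 60% purine it was 11.1%, 2.23% and 0.946% (WT mean) and 45.4%, 17.0% and 10.0% (KO). It was 2.45% and 25.2% with at least 3 converted positions. The WT mean was 20.9% with 1 cluster per gene and class (33.3% in KO), 2.31% over the 540 strongest intronic clusters of each library and 3.08% ± 2.59 (SD, n = 2) with at least 100 reads (1.25% in WT rep1, 4.91% in WT rep2), the last added after the data were seen. KO stayed above the WT mean in all of these. The setting of 1 cluster per gene and class removes mostly other intronic WT clusters, so its higher WT mean is no result. Leaving out each WT library gave 5.34% to 6.28%.

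The overlap difference (-15.3 percentage points) kept its sign in all 17 alternatives. It was -17.5 with at least 3 converted positions, -16.6 with 1 cluster per gene and class, -4.89 for WT rep1 clusters in WT rep2, and -7.06, -12.1, -17.7 and -22.8 at 5 to 9, 10 to 19, 20 to 49 and 100 or more reads. Over the 540 strongest intronic clusters of each library, 0 of 13 purine-rich WT rep2 clusters were overlapped, against 15.7% of the others. With 13 clusters this value carries little weight.

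The conversion difference (4.71) was 3.72, 6.21 and 7.61 at limits of 45%, 55% and 60% and 3.56 with at least 3 converted positions. Without either WT library it ranged from 4.11 to 5.31. At equal T number the difference was 0.517, which is a mean over clusters and not over all T positions. The G difference (8.40) was 10.8 and 13.3 at 55% and 60%, 10.3 without 3 nt at each end and 6.45 with at least 3 converted positions (-2.33 in KO), and 7.43 to 9.36 without either WT library. The difference in median reads (0) was -29.5 with 1 cluster per gene and class, where the strongest of more clusters is kept for the others, and -4 to 4 without either WT library. Over the 540 strongest it was 11.8 (46.5 in WT rep1, -23 in WT rep2), on 12 and 13 purine-rich clusters.

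The neighbour difference (-6.07) was -4.54 and -6.57 at 45% and 55%, -4.81 without 3 nt at each end, -5.62 with at least 10 reads, and -3.57 and -5.39 for neighbours within 50 and 1000 nt. Its mean reversed to 0.199 with at least 3 converted positions and to 2.46 over the 540 strongest. WT rep2 did not reverse in either (-6.10 and -3.61, against 6.496 and 8.52 in WT rep1). The 540 strongest held 12 purine-rich clusters in WT rep1 and 13 in WT rep2, and the cause was not tested. With 1 cluster per gene and class the difference was 1.88. Same-gene neighbours are then 1 of each class, which gives the smaller class the higher share, so this sign is no result. Without either WT library the neighbour difference ranged from -6.36 to -5.78. No paired analysis was possible because KO is 1 library with no replicate number. A genotype effect cannot be told apart from the one KO library, its fewer clusters or its preparation.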
